A study of Triticum aestivum with 48 samples.

Results

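XTH, the wheat gene for a xyloglucan endotransglucosylase, was followed in roots and shoots of 15 day old wheat seedlings grown at 2 nitrogen supplies. The gene was found as every probe set that the probe annotation pairs, by symbol or synonym, with XTH. This gave 1 probe set, Ta.30703.1.S1_at (gene ID 543464, synonym ext), of 61290 on the array. XTH is thus 1 of the 771 genes, with 1273 probe sets, that the annotation pairs with a probe set of their own. In the RefSeq gene table of the IWGSC CS RefSeq v2.1 assembly the gene lies on chromosome 4A. XTH was chosen from genes put forward with earlier results of these data known, and the p-values below take no account of that choice. The single probe set has no second reading of the same transcript beside it, and which of the homeologous copies of hexaploid wheat it detects was not tested.

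The seedlings were of 4 genotypes, HD2967, K9107, K307 and Chotilarma (CL), all raised in pots of vermiculite and perlite. The stressed groups received 0.08 mM calcium nitrate and the control groups 8 mM, each in roots and in shoots, so that 16 groups of 3 arrays (48 in all) were available. Per the series description, 3 sets of pots stood behind each genotype and supply. Whether seedlings were pooled for an RNA sample is not given in the sources used here, so p-values measure the spread between these samples. The bulk tissue cannot tell fewer XTH expressing cells from less XTH RNA per cell.

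Xyloglucan is a hemicellulose that coats and ties cellulose microfibrils in the primary wall. Xyloglucan endotransglucosylase/hydrolases (XTHs) cut a xyloglucan chain and join the new end to another chain, or to water, and so rework the wall while it is laid down and while it loosens. XTH genes form large families in plants, whose members are typically transcribed in expanding tissue such as the elongation zones of roots and grass leaves. Grass walls hold little xyloglucan compared with those of dicots. Core histone genes, which are transcribed mainly during DNA replication, and tubulin genes, which encode the subunits of microtubules, are set beside XTH here as transcripts of dividing and growing tissue.

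The array medians fell into 4 ranges of 12 arrays, called normalization sets 1 to 4, with medians of 1.14 to 1.26, 4.33 to 4.47, 4.61 to 4.68 and 5.32 to 5.39 on the log2 scale. All CL arrays, and only these, made up set 1, and what is CL scale and what is CL genotype cannot be told apart. Each other set held arrays of HD2967, K9107 and K307. XTH is therefore given below as its log2 signal minus the median of its own array, and tests were made with limma on the deposited log2 values with the set as a term. The photosynthesis markers held 36 probe sets of 6 genes, and most of these probe sets were of 1 gene, rbcL. Averaged over HD2967, K9107 and K307, 22 were called lower and 0 higher in stressed roots than in stressed shoots. Of all probe sets 16.6% were called lower and 23.8% higher there. The list median was -0.40, with 11 above 0. In control roots 21 were called lower and 3 higher, beside 17.5% and 21.6% of all probe sets, with a list median of -0.45. Picked from this list as examples, petC, PRK and PsbO differed between roots and shoots by -6.21, -6.16 and -4.74 log2 units in the stressed average of HD2967, K9107 and K307, lower in the samples labelled root. In their petC values CL roots lay at -7.86 (stressed) and -8.39 (control) against CL shoots. For CL stressed root 1 the tissue entry says shoot and the title says root, and the title was followed. No root marker was matched by the annotation.

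In roots XTH stood a little above the middle of the array in every sample of HD2967, K9107 and K307. Its signal lay between percentiles 55.1 and 66.0 of the probe sets on those 18 arrays, and between percentiles 71.6 and 84.3 on the 6 CL root arrays. HD2967 roots had 0.80, 0.86 and 0.84 log2 units above the array median under low nitrogen and 0.83, 0.82 and 0.99 in controls. The stressed samples were the closest replicates of all 16 groups (SD 0.03), and the 2 supplies overlapped. K9107 roots had 0.64, 0.52 and 0.61 in stressed samples and 1.06, 0.70 and 1.16 in controls, with every stressed sample below every control. K307 roots had 0.37, 0.36 and 0.79 in stressed samples and 0.60, 0.73 and 0.79 in controls. CL roots had 1.28, 1.06 and 1.03 in stressed samples and 1.22, 1.36 and 2.32 in controls, where control 3 stood well above the other 5 arrays.

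In shoots the same probe set reached higher levels and varied far more between replicates. On the 18 shoot arrays of HD2967, K9107 and K307 it ran from percentile 60.1 to 92.5, with a median of 82.7, and on the 6 CL shoot arrays from 79.9 to 94.5. HD2967 shoots had 2.63, 3.29 and 1.42 log2 units above the array median in stressed samples and 3.63, 1.23 and 0.99 in controls. The highest and the lowest of these 6 values were both controls. K9107 shoots had 3.26, 3.65 and 0.72 in stressed samples and 0.80, 0.79 and 1.37 in controls, so that 2 stressed samples stood far above all controls and the third below all of them. K307 shoots had 3.68, 3.56 and 2.19 in stressed samples and 3.69, 4.05 and 2.86 in controls, all high except stressed sample 3. CL shoots had 4.03, 3.48 and 3.12 in stressed samples and 2.57, 1.70 and 1.98 in controls, with every stressed sample above every control. The residual SD of XTH after groups and sets were fitted was 0.27 in roots and 0.79 in shoots. The median over all probe sets was 0.23 in roots and 0.25 in shoots, and 96.9% of probe sets had a smaller one than XTH in shoots.

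**Figure D1:**
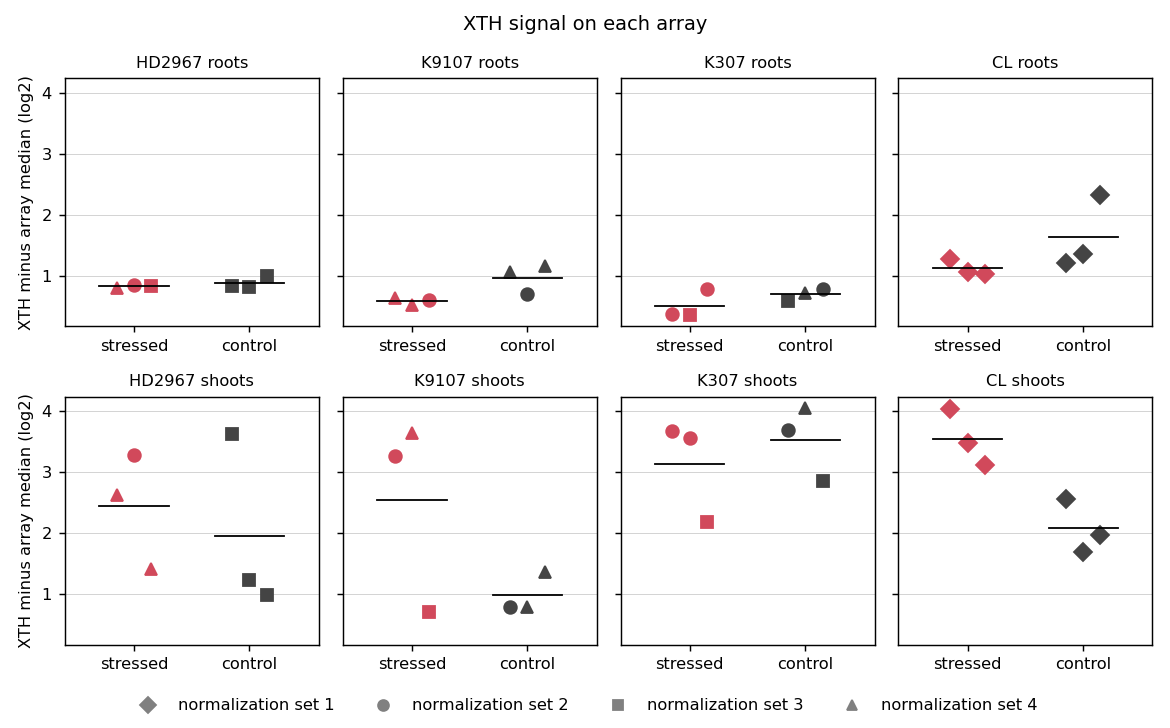
XTH log2 signal minus the median of its array (vertical axis) on each of the 48 arrays, with roots in the upper row, shoots in the lower row and 1 panel per genotype. Red points are stressed and dark points control arrays, in order of replicate number, symbols give the normalization set and lines the group means; root values of HD2967, K9107 and K307 stay between 0.36 and 1.16, while their shoot values run between 0.72 and 4.05.

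Ordered by their means above the array median, the shoot groups of HD2967, K9107 and K307 came first and the root groups last. K307 shoots led, at 3.14 ± 0.82 stressed and 3.53 ± 0.61 control (SD, n = 3 each, here and below). K9107 stressed shoots (2.54 ± 1.59), HD2967 stressed shoots (2.45 ± 0.95) and HD2967 control shoots (1.95 ± 1.46) followed. K9107 control shoots, at 0.99 ± 0.33, stood next to K9107 control roots, at 0.97 ± 0.24. HD2967 control roots (0.88 ± 0.10), HD2967 stressed roots (0.83 ± 0.03), K307 control roots (0.71 ± 0.10), K9107 stressed roots (0.59 ± 0.06) and K307 stressed roots (0.51 ± 0.24) closed the order. Of these neighbours only HD2967 stressed roots and K307 control roots had values that did not overlap, and their means differed by 0.13. The lowest value of the first was 0.80 and the highest of the second 0.79. The share of all probe sets parted in this way was not counted. On the CL scale the order was stressed shoots (3.54 ± 0.46), control shoots (2.08 ± 0.44), control roots (1.64 ± 0.60) and stressed roots (1.12 ± 0.13). Only the CL stressed and control shoots, as neighbours, did not overlap.

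Whether low nitrogen altered XTH was asked first in roots. Averaged over the 4 genotypes, the XTH difference between stressed and control roots was -0.31 ± 0.11 log2 units (SE, 95% interval -0.53 to -0.08), and it did not pass at an adjusted p of 0.107 in limma. Of all probe sets, 3.08% were called lower in this comparison. The sign was negative in each genotype, with -0.16 ± 0.24 for HD2967 roots, -0.37 ± 0.21 for K9107 roots, -0.18 ± 0.22 for K307 roots and -0.52 ± 0.21 for CL roots (SE), and none passed (adjusted p = 0.858, 0.862, 0.774 and 0.267). With no set term the HD2967 value was 0.11. Within single normalization sets the differences were -0.09 and -0.51 in K9107, -0.23 and -0.25 in K307 and -0.04 in HD2967. In K9107 roots, where the groups did not overlap above the array median, 6.13% of all probe sets likewise had every stressed value below every control. The responses of the genotypes were not shown to differ (F-test of genotype by nitrogen, adjusted p = 0.868). Without CL root control 1, the average of the 4 genotypes was -0.36 and passed (adjusted p = 0.0369). This was the only 1 of 24 fits with 1 array left out to pass. Without CL root control 3, the high one, the average was -0.22 (adjusted p = 0.0823). CL roots then stood at -0.18 (adjusted p = 0.733). In CL roots, where 0.778% of all probe sets were called lower, 7 of the 18 core histone probe sets fell, with a list median of -1.13. In the other genotypes 0 of 18 were called. The list medians there were 0.35 in K9107 roots (16 above 0) and 0.44 in K307 roots (17 above 0), against the sign of XTH. In HD2967 roots the list median was 0.02. This list's part in the XTH values was not tested.

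In shoots the estimates of the genotypes ran from -1.23 to 2.17, and none passed. In K9107 XTH lay 2.17 ± 0.62 log2 units higher in stressed shoots (95% interval 0.86 to 3.49), yet with an adjusted p of 0.207 in limma it did not pass among 61179 probe sets, of which 0.0736% were called higher. Where stressed and control arrays of K9107 shared a set, the difference was 2.56 in set 2 and 2.61 in set 4. Stressed sample 3, the low one, shared its set with no K9107 control shoot. The K9107 difference passed in a fit of the 6 K9107 shoot arrays alone (2.59, adjusted p = 0.0177 in limma). There stressed sample 3 was the only array of its set, so the set term took it up and it had no part in the 2.59. In a fit of all 48 arrays the K9107 difference was 1.92 and passed (adjusted p = 0.0495). With each array centred on its own median and no set term it was 1.55 (adjusted p = 0.618).

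CL shoots had the second positive estimate. XTH lay 1.41 ± 0.59 higher in stressed CL shoots (95% interval 0.17 to 2.66) and did not pass (adjusted p = 0.224). Its groups did not overlap, which also held, in the same direction, for 10.9% of all probe sets, and 2.67% of probe sets were called higher. K307 shoots lay at -0.43 ± 0.61 (95% interval -1.72 to 0.85, adjusted p = 1.00), and at -0.09 in set 2 and -0.68 in set 3. HD2967 shoots lay at -1.23 ± 0.80 (adjusted p = 1.00), and at 0.50 (adjusted p = 0.810) with each array centred on its own median, so no direction can be given. The stressed and control shoots of HD2967 share no set. Their difference thus rests on the fitted XTH offsets between sets in shoots, which were 1.54 for set 2 and 2.44 for set 4 relative to set 3. The medians of these offsets over all probe sets were -0.19 and 0.68. The average over the 4 genotypes was 0.48 ± 0.31 (adjusted p = 0.526), or 0.17 without the 12 CL arrays (adjusted p = 0.944). The test of genotype by nitrogen, which compares CL on its own scale, did not pass (adjusted p = 0.350).

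**Figure D2:**
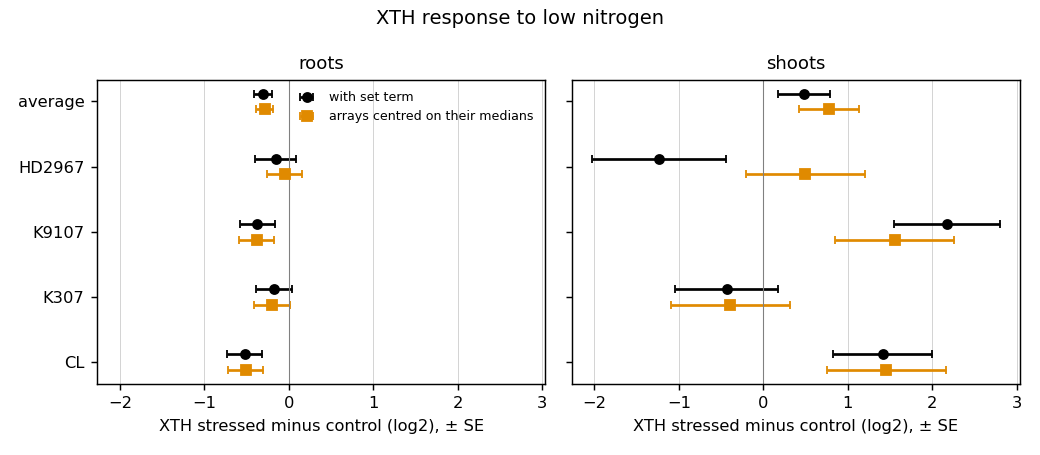
Difference in XTH, stressed minus control, on the log2 scale (horizontal axis, ± SE) in roots (left) and shoots (right) for the average of the 4 genotypes and for each genotype, 3 stressed against 3 control arrays each. Black points come from the fit with the set term and orange points from arrays centred on their medians; the root estimates lie between -0.52 and -0.05, the shoot estimates run from -1.23 to 2.17 and the HD2967 shoot estimate changes sign.

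The average responses of roots and shoots differed by -1.06 ± 0.35 log2 units in a fit of all 48 arrays (root minus shoot, 95% interval -1.78 to -0.35). It did not pass (adjusted p = 0.128), and 0.910% of all probe sets were called in this direction. Without HD2967 shoot control 1 it was -1.28 (adjusted p = 0.0100), and without K9107 shoot stressed 3 it was -1.25 (adjusted p = 0.0305). Only these 2 of the 48 fits with 1 array left out passed. Over all 48 the difference ran from -1.28 to -0.94, with an adjusted p of up to 0.203 in limma.

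Core histone and tubulin transcripts stood apart in the same shoot samples as XTH. The median of the 18 histone probe sets, in log2 units above the array median, was 4.80, 4.27 and 0.25 in HD2967 stressed shoots 1, 2 and 3 and 4.37, 0.24 and 0.19 in the HD2967 controls. XTH was likewise low in stressed sample 3 and high, among the controls, only in sample 1. K9107 shoots had histone medians of 3.17, 3.40 and -0.06 in stressed samples, with XTH low in sample 3, and of 0.17, 0.18 and 0.21 in controls, where XTH was low throughout. K307 shoots had 4.16, 3.76 and 0.07 in stressed samples and 3.79, 3.57 and 3.83 in controls. CL shoots had 3.77, 4.08 and 3.53 in stressed samples and -0.26, 0.38 and -0.19 in controls.

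The 10 tubulin probe sets moved less. Their median above the array median was 5.09, 4.89 and 2.85 in K9107 stressed shoots and 3.60, 3.13 and 3.18 in the controls. HD2967 shoots had 4.86, 4.81 and 3.76 in stressed samples and 5.01, 3.63 and 2.72 in controls. XTH and the histones did not match everywhere. K307 stressed shoot 3 differed from the K307 control shoot of the same set by -3.78 in histones, by -1.38 in tubulins and by -0.68 in XTH. As list medians, histones differed between stressed and control shoots by 2.80 in K9107 (0 of 18 called), 3.61 in CL (4 of 18 called higher), -1.47 in K307 and -0.65 in HD2967. Tubulins differed by 1.17 in K9107, by 2.64 in CL, where 7 of 10 rose, by -0.68 in K307 and by -0.36 in HD2967. In CL these counts stand beside the 2.67% of all probe sets called higher. The median over all probe sets was -0.06 in K9107 and -0.04 in CL. The part that growing tissue in a shoot sample had in the XTH values was not tested. In roots the histone medians lay high in all samples of HD2967, K9107 and K307, between 3.27 and 4.52 above the array median, and XTH lay at 1.16 or less.

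**Figure D3:**
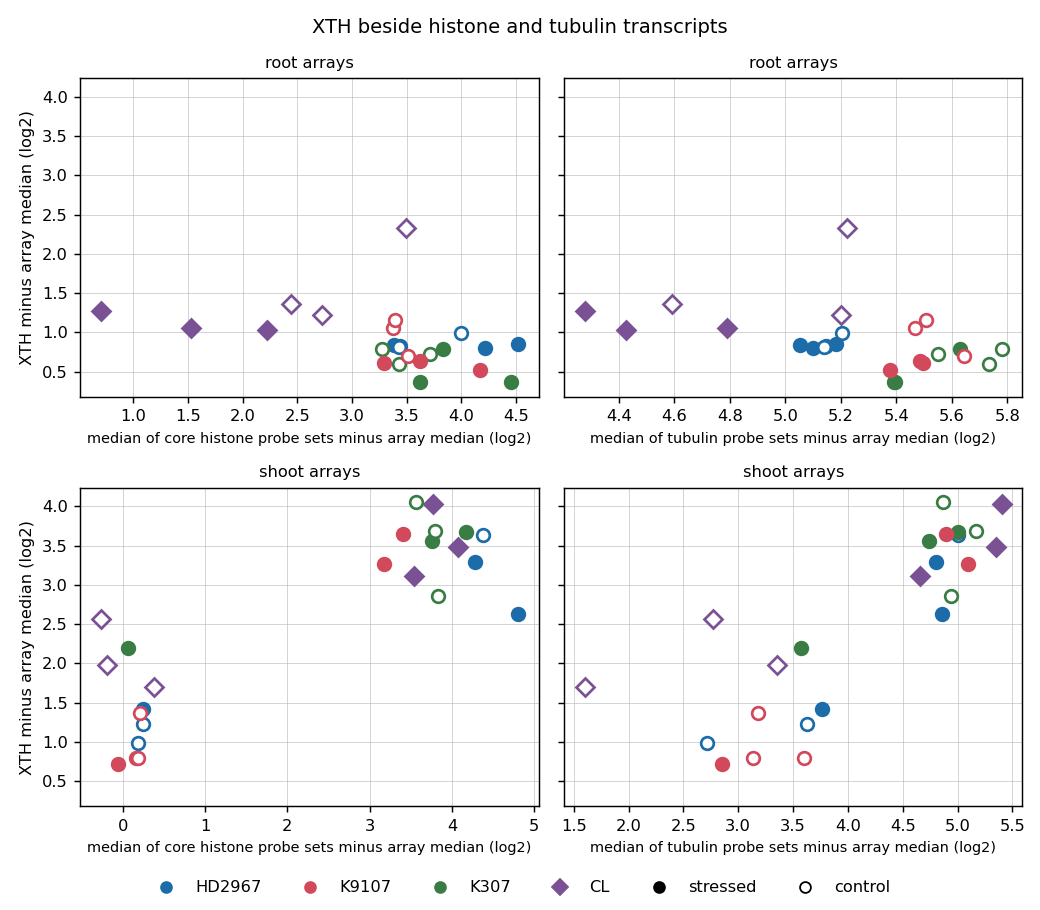
XTH log2 signal minus the array median (vertical axis) against the median of the 18 core histone probe sets (left) or the 10 tubulin probe sets (right), also minus the array median in log2 units (horizontal axis), for the 24 root arrays (upper row) and the 24 shoot arrays (lower row). Colours give genotypes, filled symbols stressed and open symbols control arrays; shoot arrays with histones near the array median have XTH at 2.57 or less, while root arrays with high histones have XTH at 2.32 or less. The root and shoot panels have different horizontal scales.

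Genotypes were compared within each supply and tissue for HD2967, K9107 and K307, with the CL arrays kept out of the contrasts. In control shoots XTH differed between them (F-test in limma, adjusted p = 0.0113), as did 7.39% of all probe sets. K9107 control shoots were lower than those of K307, with a difference of -3.17 ± 0.62 log2 units (95% interval -4.48 to -1.86, adjusted p = 0.00627). Of all probe sets, 3.62% were called lower in this contrast. All K9107 values above the array median (0.80, 0.79 and 1.37) were below all K307 values (3.69, 4.05 and 2.86). The share of all probe sets with no such overlap was not counted here. The K9107 difference from K307 did not pass with no set term (-2.36, adjusted p = 0.139) or with arrays centred on their medians (-2.54, adjusted p = 0.0530). HD2967 control shoots lay 2.75 ± 0.80 above K9107 (adjusted p = 0.0933) and -0.42 ± 0.68 from K307 (adjusted p = 0.893). Neither passed. The control shoots of HD2967 and K9107 share no set, so their difference rests on the fitted offsets between sets. It was 0.61 with no set term (adjusted p = 0.609 in limma) and 0.96 with arrays centred on their medians (adjusted p = 0.494). HD2967 control 1 was within the range of the K307 controls and the other 2 HD2967 controls were below it. Without HD2967 control 3 the difference from K9107 was 3.25 and passed (adjusted p = 0.0381). This was the only 1 of 6 fits with 1 array left out to pass, over a range of 1.89 to 3.25.

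The histones and tubulins moved with the difference between K9107 and K307 control shoots. Of the 18 histone probe sets 10 were called lower in K9107 and none higher, with a list median of -4.44. Of the 10 tubulin probe sets 4 were called lower, with a median of -1.46. These counts stand beside the 3.62% of all probe sets called lower. The part of histones and tubulins in the XTH difference was not tested. The genotype call for XTH was lost with no set term (adjusted p = 0.147) and with arrays centred on their medians (0.0660). It was also lost without K307 shoot control 2 (0.0627) or without K9107 shoot control 1 (0.0886), and the K9107 difference from K307 then stood at -2.96 without the K9107 array (adjusted p = 0.0714). Between the genotypes XTH did not pass in stressed shoots (adjusted p = 0.832), where K9107 lay -0.56 ± 0.61 from K307. It passed neither in stressed roots (adjusted p = 0.640) nor in control roots (adjusted p = 0.799), where all pairwise differences were between -0.02 and 0.30.

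Roots and shoots were compared in a fit of all 48 arrays. Averaged over HD2967, K9107 and K307, XTH was lower in roots than in shoots, with a difference of -2.07 ± 0.29 log2 units in stressed seedlings (adjusted p = 2.90e-07) and of -1.29 ± 0.29 in control seedlings (adjusted p = 0.000387). Lower calls of this kind were common, at 16.6% of all probe sets in stressed and 17.5% in control seedlings. Both averages passed in each of the 18 fits that left out 1 of their arrays, at -2.31 to -1.90 stressed and -1.46 to -1.01 control.

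By genotype the stressed difference was -2.28 ± 0.51 in K9107 (adjusted p = 0.00098), -2.61 ± 0.50 in K307 (adjusted p = 0.000123) and -2.38 ± 0.50 in CL (adjusted p = 0.000638). In HD2967 it was -1.31 ± 0.51 and did not pass (adjusted p = 0.0714). HD2967 passed without stressed root 3 (-1.63, adjusted p = 0.0351), without stressed shoot 3 (-1.83, adjusted p = 0.0148), with no set term (-1.87, adjusted p = 0.0445) and with arrays centred on their medians (-1.62, adjusted p = 0.0326). Over the 6 fits that left out 1 of its arrays it ran from -1.83 to -0.78, the smallest without stressed shoot 2 (adjusted p = 0.456). K9107 did not pass with no set term (-1.72, adjusted p = 0.0702). The background of lower calls was 10.2% in K9107, 10.6% in K307, 7.14% in CL and 9.26% in HD2967. In each genotype every stressed root lay below every stressed shoot on the scale above the array median, as did 12% of all probe sets in K9107, 14.3% in K307, 14.6% in CL and 11.9% in HD2967.

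In control seedlings only K307 passed, at -2.82 ± 0.50 (adjusted p = 3.37e-05), where 11.9% of probe sets were called lower and 15.3% had every root below every shoot, as XTH did. HD2967 lay at -1.07 ± 0.50 (adjusted p = 0.135), at -1.57 without control shoot 3 (adjusted p = 0.0350) and at -0.21 without control shoot 1 (adjusted p = 0.824), the ends of the range over its 6 left-out arrays. CL lay at -0.44 ± 0.50 (adjusted p = 0.649). K9107 control roots and shoots differed by 0.02 ± 0.50 (95% interval -0.996 to 1.03), and by -0.04 in set 2 and 0.04 in set 4. The difference between roots and shoots depended on the genotype in control seedlings (F-test over HD2967, K9107 and K307, added after the values were seen, adjusted p = 0.0399), as it did for 3.60% of probe sets. This call was lost with no set term (adjusted p = 0.375), after quantile normalization (0.0898) and with arrays centred on their medians (0.0944). It was also lost in 11 of 18 fits without 1 control array. These were the fits without HD2967 root 2, K307 root 2 or 3, any K9107 root, any K307 shoot, or K9107 shoot 1 or 2. In stressed seedlings it did not pass (adjusted p = 0.764).

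In the average of HD2967, K9107 and K307 histones and tubulins went the other way from XTH between the tissues. Their list medians were higher in roots by 1.22 and 0.89 in stressed and by 1.80 and 1.43 in control seedlings, with 8 of 18 and 7 of 10 probe sets called higher in stressed seedlings and 15 of 18 and 9 of 10 in controls. Of all probe sets 23.8% were called higher in stressed roots and 21.6% in control roots. This did not hold in every genotype. In CL stressed roots, where XTH lay at -2.38, the list medians were -2.33 for histones, with 3 of 18 called lower, and -0.51 for tubulins, with 0 of 10 called. Of all probe sets 7.14% were called lower in that comparison. In K307 control roots, where XTH lay at -2.82, the histone median was -0.20, with 6 of 18 probe sets above 0, and the tubulin median was 0.66.

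**Figure D4:**
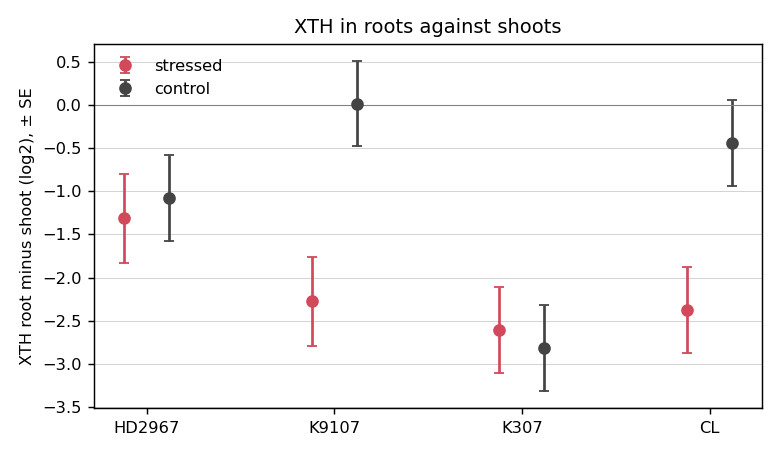
Difference in XTH, root minus shoot, on the log2 scale (vertical axis, ± SE, 3 root against 3 shoot arrays each) in the 4 genotypes (horizontal axis), with stressed seedlings in red and control seedlings in dark grey, from the fit of all 48 arrays. The 4 stressed estimates lie between -2.61 and -1.31, and the control estimates run from -2.82 in K307 to 0.02 in K9107.

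The genes whose levels ran most like XTH were sought among 770 genes with a probe set paired with 1 gene, by Pearson's r over the set-adjusted means of the 12 groups of HD2967, K9107 and K307. These groups share arrays, sets and the contrast of roots with shoots, so r is a description. The highest values were 0.977 for LOC606361 and 0.966 for LOC100037578, which carry no further name in the annotation. They were followed by LOC100037556 (0.964), LOC543318 (0.954, synonyms amy1 and BMY1, of which BMY1 is a usual symbol for beta-amylase) and LOC542989 (0.954). At the value of LOC542989 or above lay 165 of 61178 probe sets (0.27%), and the median r over all of them was -0.24. The lowest values were -0.889 for LOC543096 and -0.867 for LOC543111. With arrays centred on their medians r was -0.667 for LOC543096, at rank 671 of the 770 genes, and -0.870 for LOC543111. The set-adjusted means of LOC543096 spanned only 0.29 log2 units over the shoot groups and 0.32 over the root groups.

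Among the genes with a name, chosen after the values were seen, GA20ox1d, a gibberellin 20-oxidase of gibberellin synthesis, had r = 0.939 and TaGlu1a, a beta-glucosidase, had r = 0.937. With arrays centred on their medians r was 0.945 for GA20ox1d, 0.921 for TaGlu1a and 0.984 for BMY1. Above the array median GA20ox1d stood highest in K307 shoots, as XTH did, at 2.08 stressed and 1.80 control. It lay at 0.85 stressed and 0.34 control in HD2967 shoots, at 0.74 and 0.43 in K9107 shoots, and below the array median in all 6 root groups. BMY1 lay at 0.75 stressed and -0.66 control in HD2967 shoots, at 0.43 and -1.52 in K9107 shoots and at 0.92 and 2.19 in K307 shoots. In roots it lay between -2.25 and -2.08. CL was not in the r values, and there BMY1 ran against XTH between the supplies, at 1.48 in stressed and 2.41 in control shoots. So did GA20ox1d, at 0.02 in stressed and 0.89 in control CL shoots. TaGlu1a went the same way as XTH in CL shoots, at 5.48 stressed and 2.77 control. Over the groups of HD2967, K9107 and K307, r with XTH ran from -0.88 to 0.11 in the 18 histone probe sets (median 0.00). It ran from -0.56 to 0.12 in the 10 tubulin probe sets (median -0.30). In the 36 photosynthesis marker probe sets, most of them of rbcL, it ran from -0.72 to 0.87 (median 0.73). These r values pool roots and shoots, between which histones and tubulins on average went the other way from XTH. They therefore do not describe how the lists and XTH ran within shoots.

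Few genes of the cell wall could be set beside XTH, because the annotation gives symbols without descriptions. The cell wall list held 1 other probe set, that of COMT1, a caffeic acid O-methyltransferase of lignin synthesis. Its average difference between stressed and control samples was -0.15 ± 0.09 in roots (adjusted p = 0.403) and 0.00 ± 0.12 in shoots (adjusted p = 0.995). In K9107 shoots, where XTH lay at 2.17, COMT1 lay at 0.32 ± 0.24 (adjusted p = 0.730), and in CL shoots at -0.54 ± 0.23 (adjusted p = 0.230). Between genotypes COMT1 was higher in HD2967 than in K307 control shoots by 1.24 ± 0.27 (adjusted p = 0.0120), a contrast in which 1.68% of probe sets were called higher and XTH did not pass.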

How the data were processed

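The deposited log2 signal intensities come from Affymetrix Wheat Genome Arrays. RMA is the method that the submitters' processing notes name for them. GeneSpring 14.5 and a Student's test per probe set at p of at most 0.1 followed, per the series description. How arrays were grouped for normalization is not given in the sources used here. Their number of arrays limits the precision.

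Arrays were grouped by their labels. Normalization sets were defined by gaps of over 0.1 between array medians. limma 3.58.1 (R 4.3.3), with moderated two-sided tests, was run over 61179 probe sets, leaving out 111 control probe sets, with group and set as fixed terms and 24 arrays per tissue. Roots and shoots were compared in a fit of 48 arrays. Benjamini-Hochberg adjustment ran over all probe sets, with a threshold of 0.05. The fits were checked on simulated data. The gene, the lists and the tests were chosen with earlier results of these data known. Named genes were XTH, the 5 genes of highest and the 5 of lowest r with it, and the cell wall list. The 2 lowest are printed, and the 101 named genes were searched after values were seen. The probe annotation and the reference table paired symbols and gene IDs: 770 of 771 genes were found there.

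Alternatives covered the set term, quantile normalization, a filter on dim probe sets (mean percentile of at least 50), leaving out CL, fits of 6 or 48 arrays, a replicate block, the methods' t-test and each array left out in turn. Arrays centred on their medians were added after seeing the data. Same-numbered stressed and control arrays had residual correlations of 0.115 to 0.228 in CL shoots. Over all genotypes and tissues these ran from -0.52 in K307 shoots to 0.56 in HD2967 shoots. The main fits did not pair arrays, and the replicate numbers entered only the replicate block. Sequences and gene coordinates were not used here.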

Additional observations from a re-analysis of the deposited data

Results flagged for a closer look

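The difference in XTH between roots and shoots depended on the genotype in control seedlings (F-test in limma over HD2967, K9107 and K307, adjusted p = 0.0399), at -1.07 in HD2967, 0.02 in K9107 and -2.82 in K307, each from 3 root and 3 shoot arrays. The test was added after the values were seen. The call was lost with no set term (adjusted p = 0.375), after quantile normalization (0.0898), with arrays centred on their medians (0.0944) and in 11 of 18 fits without 1 control array. On the scale above the array median every K307 control root lay below every K307 control shoot, and the control values of K9107 and of HD2967 overlapped between the tissues. The histone medians above the array median were 0.17, 0.18 and 0.21 in K9107 control shoots and 3.79, 3.57 and 3.83 in K307 control shoots, and their part in the difference was not tested.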

How the results depend on the processing

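The averages of roots against shoots kept their sign and their call under every alternative run. The nitrogen responses kept their sign except in HD2967. HD2967 roots lay at 0.11 with no set term and by the methods' t-test. HD2967 shoots lay at 0.91 with no set term and by that test, and at 0.50 with arrays centred on their medians. K9107 shoots passed alone (2.59, with stressed sample 3 taking no part) and in the fit of 48 arrays (1.92). With the replicate block they stood at 2.72 and passed (adjusted p = 0.0376), although residuals of same-numbered K9107 shoot arrays correlated at -0.502 to -0.408 and the samples share only a number. With the block HD2967 shoots stood at -3.22 (adjusted p = 0.314) and the shoot average at 0.036 (adjusted p = 0.991). The block ended the call of genotype by tissue in control seedlings (adjusted p = 0.0730) and changed no other call on a nitrogen response, CL shoots included. CL shoots stood at 1.41 by the methods' t-test, past the threshold of 0.1 before but not after Benjamini-Hochberg adjustment. The genotype difference in control shoots had an adjusted p of 0.147 with no set term and 0.0660 with arrays centred on their medians. The causes were not tested.

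Some pairwise differences that had not passed changed sign. In stressed roots HD2967 minus K9107 was -0.0029 and K9107 minus K307 was 0.63 with no set term, and the second was 0.083 with centred arrays. In control roots HD2967 minus K9107 was -0.48 with no set term and -0.091 with centred arrays, HD2967 minus K307 was -6.7e-06 with no set term, and K9107 minus K307 was -0.077 in the fit of 48 arrays. HD2967 minus K9107 in stressed shoots was 0.15 with no set term. K9107 control roots minus shoots was -0.015 both after quantile normalization and with centred arrays.

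With 1 array left out in turn, the root responses ran from -0.36 to -0.22 on average, -0.31 to -0.09 in HD2967, -0.53 to -0.29 in K9107, -0.29 to -0.10 in K307 and -0.75 to -0.18 in CL. The shoot responses ran from 0.36 to 0.70 on average, -1.94 to -0.37 in HD2967, 1.66 to 2.51 in K9107, -0.77 to -0.06 in K307 and 1.16 to 1.68 in CL. The adjusted p of the genotype difference in control shoots ran from 0.000931 to 0.0886, and that of genotype by tissue in control seedlings from 0.00246 to 0.119. Signs turned for HD2967 minus K9107 in control roots (-0.11 to 0.15), K9107 minus K307 in stressed roots (-0.089 to 0.11), HD2967 minus K307 in control shoots (-1.28 to 0.18) and K9107 control roots minus shoots (-0.11 to 0.21). The fit of HD2967 shoots alone could not be made, and genotype differences could not be fitted with the replicate block. XTH had 1 probe set, so no second probe set could be tried. XTH lay above the 55th percentile on every array, so the filter on dim probe sets kept it. No detection call was made, and in roots of HD2967, K9107 and K307 it lay only 0.36 to 1.16 log2 units above the array median. Whether the root signal stood above background was not tested.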
